A study of Saccharomyces cerevisiae with 3 samples.

Results

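The genomes of 3 Saccharomyces cerevisiae strains were compared at the open reading frames (ORFs) of the Ty retrotransposons by array comparative genomic hybridisation, in which labelled DNA of 2 strains competes for the same spots. The Ty ORFs were chosen by name: 30 listed ORFs plus every array entry whose name contains TYA or TYB. The list was drawn up with earlier results of these data known. The list and the name rule gave 31 ORFs, and 30 of them had a value in every sample, out of 6123 ORFs with complete values; YFL002W-A was not analysed here. The strains were R2 IVo, an artificial hybrid within the species, and its parents Sc1 and Sc2, all grown and dried under an industrial protocol per the labels. The sources used here give no genotypes, and the hybrid is 1 strain. Each of the 3 samples was 1 pair of strains (R2 IVo against Sc1, R2 IVo against Sc2, and Sc1 against Sc2), and the authors combined duplicate arrays with exchanged dyes into 1 value per ORF.

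Ty elements are retrotransposons with long terminal repeats that copy themselves through RNA. Their first reading frame, TYA, encodes Gag, the protein of the virus-like particle, and their second, TYB, encodes Pol, the polyprotein with protease, integrase, reverse transcriptase and RNase H. Pol is made as a Gag-Pol fusion by ribosomal frameshifting, so an annotated Gag-Pol ORF usually contains the Gag frame. Ty1 and Ty2 are close relatives whose Gag sequences differ more than most of their Pol sequences, Ty4 is a more distant relative of the same group, and Ty3 belongs to a separate group that resembles the gypsy elements of animals. Copies of a family are often nearly alike within a genome. A spot named for 1 copy may therefore collect DNA of others, and the ORFs below are not separate loci; how far each spot does so was not tested. No sequence of a Ty ORF or of an array probe was used here.

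By family and product, the 30 ORFs were 8 Gag and 11 Gag-Pol ORFs of Ty1, 2 Gag and 2 Gag-Pol ORFs of Ty2, a Gag, a Gag-Pol and a Pol part of Ty3 (YIL082W, YIL082W-A and YIL080W), a Gag and a Gag-Pol ORF of Ty4, and YFL-TYA and YFL-TYB, whose family the array name does not give. The values are log ratios with the first-named strain as numerator. The base is not stated and was read as 2, and the direction was read from the titles, so the folds below and all signs rest on these readings. Cells deposited as whole numbers of at least 1000 were divided by 1000, which touched 22 cells in 13 Ty ORFs. The 3 samples close a triangle, and the departure from closure had a median size of 0.13 in those 13 ORFs and of 0.13 in the 17 others, with the largest at 0.30 and 0.40. Strain differences were estimated from all 3 samples with limma, centred on the median of each sample, and an ORF was called at a Benjamini-Hochberg adjusted p under 0.05 over all 6123 ORFs. Each estimate rests on 3 samples and 1 residual degree of freedom, so its error is that of the arrays and not of separate cultures.

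**Figure D1:**
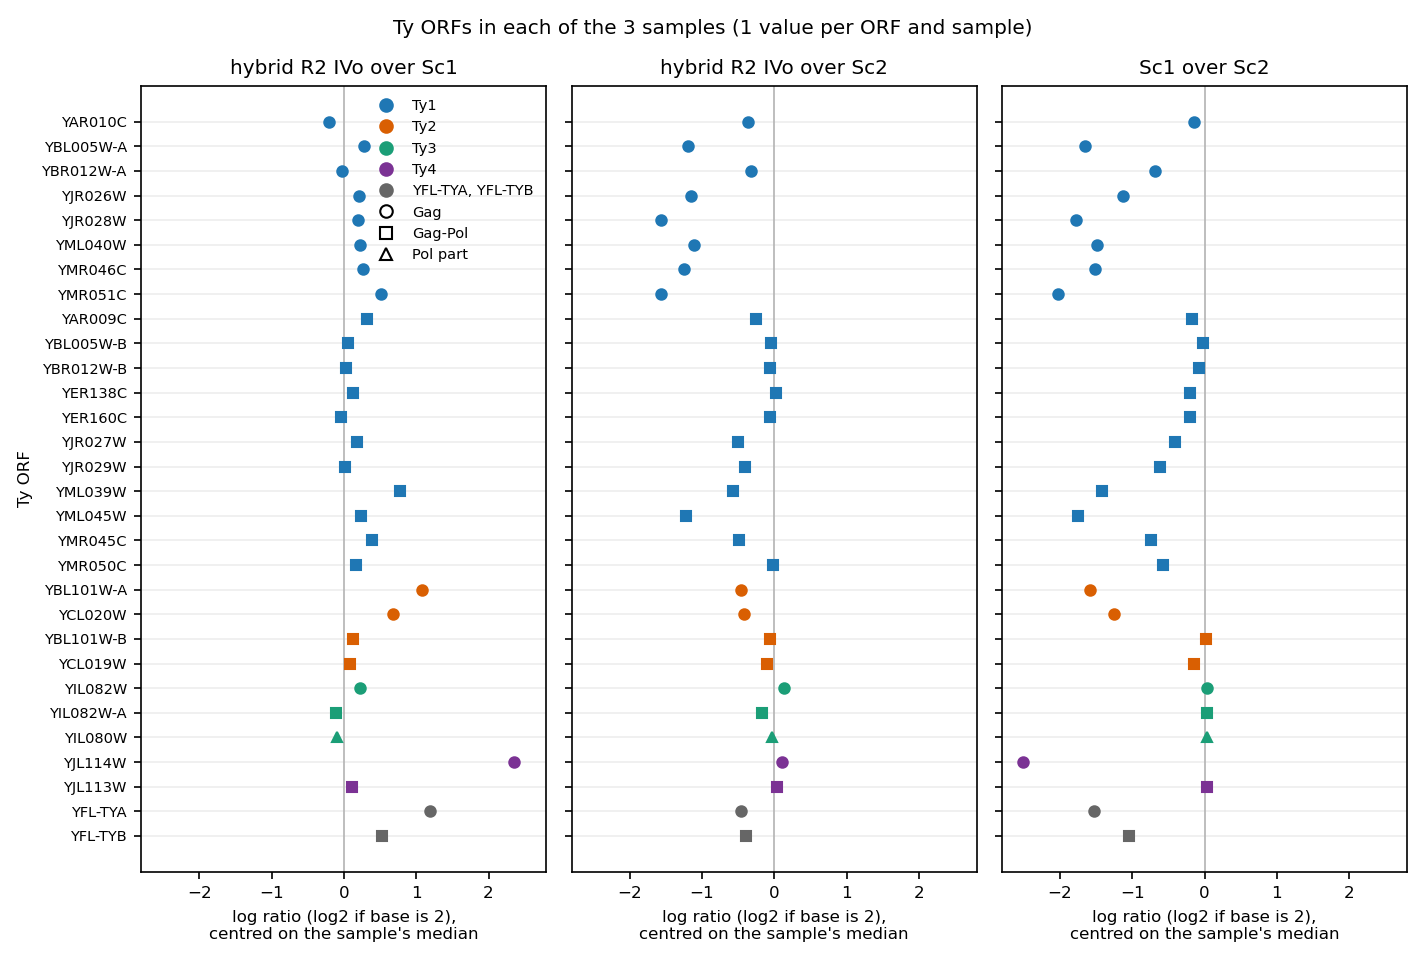
Log ratio of each of the 30 Ty ORFs (vertical axis) in each of the 3 samples (panels), centred on the sample's median; colour gives the family and the symbol the product, and each point is 1 value. Ty1 and Ty2 Gag ORFs lie to the left in the Sc1 over Sc2 panel, from −2.02 to −0.14, and the Ty4 Gag ORF YJL114W is the most extreme point in the outer panels, at 2.35 and −2.51.

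Between the parents, the Ty ORFs called were all lower in Sc1 than in Sc2. Ty1, with 19 of the 30 ORFs, gave 12 of the calls. Its called share of 63.2% was near the 56.7% of all Ty ORFs. Of the 30 Ty ORFs, limma called 17 lower in Sc1, 0 higher and left 13 without a call, while over all ORFs 1.45% were called lower and 0.523% higher. The median Ty estimate was −0.55, against 0.0020 over all ORFs. The Gag ORFs carried most of this: 11 of 13 were lower in Sc1, with a median of −1.51, against 6 of 16 Gag-Pol ORFs, with a median of −0.24; the difference between the products was not tested as such. In 21 of the 30 ORFs the unadjusted p was under 0.05, against 9.57% of all ORFs.

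The Ty1 Gag ORFs were lower in Sc1 in 7 of 8 cases. YMR051C on chromosome XIII was at −2.02 in the Sc1 over Sc2 sample, at −1.56 in the hybrid over Sc2 sample and at 0.52 in the hybrid over Sc1 sample, so Sc2 had the highest level and Sc1 the lowest. Its estimate for Sc1 over Sc2 was −2.04 ± 0.062 (SE; limma adjusted p = 4.16e-05), a 4.12-fold lower ratio if the base is 2. YJR028W on chromosome X followed at −1.77 ± 0.061 (limma adjusted p = 6.32e-05), from sample values of 0.19, −1.57 and −1.77 in the order R2 IVo over Sc1, R2 IVo over Sc2 and Sc1 over Sc2. The estimates of YMR046C and YBL005W-A were −1.51 and −1.59, and those of YJR026W and YML040W were −1.20 and −1.43. These 6 ORFs, from elements on chromosomes II, X and XIII, had Sc1 over Sc2 values between −2.02 and −1.12 in the direct sample.

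The remaining Ty1 Gag ORFs were much closer to 0. YBR012W-A was called lower in Sc1 at −0.55 ± 0.094 (limma adjusted p = 0.046), a call that ended without centring, at a prior of 4 degrees of freedom and without the ORFs with restored decimals; the other 2 samples alone gave −0.30. YAR010C on chromosome I was the 1 Ty1 Gag ORF without a call, at −0.14 ± 0.061 (95% interval −0.29 to 0.0036; limma adjusted p = 0.534). Its sample values were −0.21, −0.36 and −0.14 in the same order, so both the hybrid samples were below 0. Gag ORFs of 1 family thus spanned from −2.04 to −0.14 between the same strains.

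Of the Ty1 Gag-Pol ORFs, 5 of 11 were called lower in Sc1 and 6 were not called, with a median of −0.44 over the 11. YML045W and YML039W on the left arm of chromosome XIII stood at the level of the Gag ORFs, with −1.65 ± 0.083 (limma adjusted p = 2.19e-04) and −1.40 ± 0.063 (limma adjusted p = 1.67e-04). YMR045C was at −0.78 ± 0.067 (limma adjusted p = 0.00175), YJR029W at −0.56 and YJR027W at −0.51, the last of which lost its call without centring and at a prior of 4 degrees of freedom. The ORFs without a call were YMR050C at −0.44, YAR009C at −0.30, YER138C at −0.17, YER160C at −0.14, YBR012W-B at −0.08 and YBL005W-B at −0.05. All 11 estimates were below 0, but those of the last 4 lay between −0.17 and −0.05, with SEs between 0.061 and 0.071.

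In Ty2 the Gag ORFs differed between the parents and the Gag-Pol ORFs were near 0. YBL101W-A on chromosome II was at 1.07, −0.46 and −1.59 in the samples of R2 IVo over Sc1, R2 IVo over Sc2 and Sc1 over Sc2. YCL020W on chromosome III was at 0.68, −0.42 and −1.25. In both, Sc1 was lowest, Sc2 highest and the hybrid in between. Their Sc1 over Sc2 estimates were −1.57 ± 0.062 (limma adjusted p = 1.11e-04) and −1.20 ± 0.068 (limma adjusted p = 2.81e-04). The Gag-Pol ORFs of the same elements, YBL101W-B and YCL019W, were at −0.05 ± 0.072 and −0.16 ± 0.062 and were not called.

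YFL-TYA and YFL-TYB, named for the left arm of chromosome VI, were at −1.57 ± 0.066 (limma adjusted p = 1.26e-04) and −0.998 ± 0.065 (limma adjusted p = 5.24e-04) in Sc1 over Sc2. YFL-TYA had 1.19, −0.46 and −1.53 in the samples. Among all Ty ORFs the profile nearest to it over these 3 values was that of the Ty2 Gag ORF YBL101W-A, at a Euclidean distance of 0.13, and the next, YML039W, was at 0.44. The profile nearest to YFL-TYB was that of the other Ty2 Gag ORF, YCL020W, at 0.26, and the next, the Ty1 Gag-Pol ORF YMR045C, was at 0.35. These distances are descriptions over 3 samples of which any 2 nearly fix the third.

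Ty4 held the largest parental difference among the Ty ORFs, and of its 2 ORFs only Gag was called. YJL114W, the Ty4 Gag ORF on chromosome X, was at 2.35 in the hybrid over Sc1 sample, 0.10 in the hybrid over Sc2 sample and −2.51 in the Sc1 over Sc2 sample. Sc1 was thus low against both of the other strains, whose difference lay within its error. The Sc1 over Sc2 estimate was −2.43 ± 0.079 (limma adjusted p = 5.00e-05), 5.38-fold lower in Sc1. YJL113W, labelled here as the Gag-Pol ORF of the same element, was at 0.12, 0.04 and 0.04 in the samples. Its 95% interval for Sc1 over Sc2 ran from −0.16 to 0.16. In the RefSeq annotation YJL114W does not lie inside YJL113W.

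None of the 3 Ty3 ORFs was called by limma in any comparison. In Sc1 over Sc2 their estimates lay between −0.0037 and 0.049, with 0 of 3 at an unadjusted p under 0.05, and the sign of the 2 nearest to 0 changed with the centring. The Ty3 Gag ORF YIL082W was at 0.23, 0.14 and 0.04 in the samples, the Gag-Pol ORF YIL082W-A at −0.11, −0.16 and 0.04, and YIL080W, which covers part of Pol, at −0.10, −0.03 and 0.04. YIL082W was the 1 of them with an unadjusted p under 0.05, in each hybrid comparison.

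**Figure D2:**
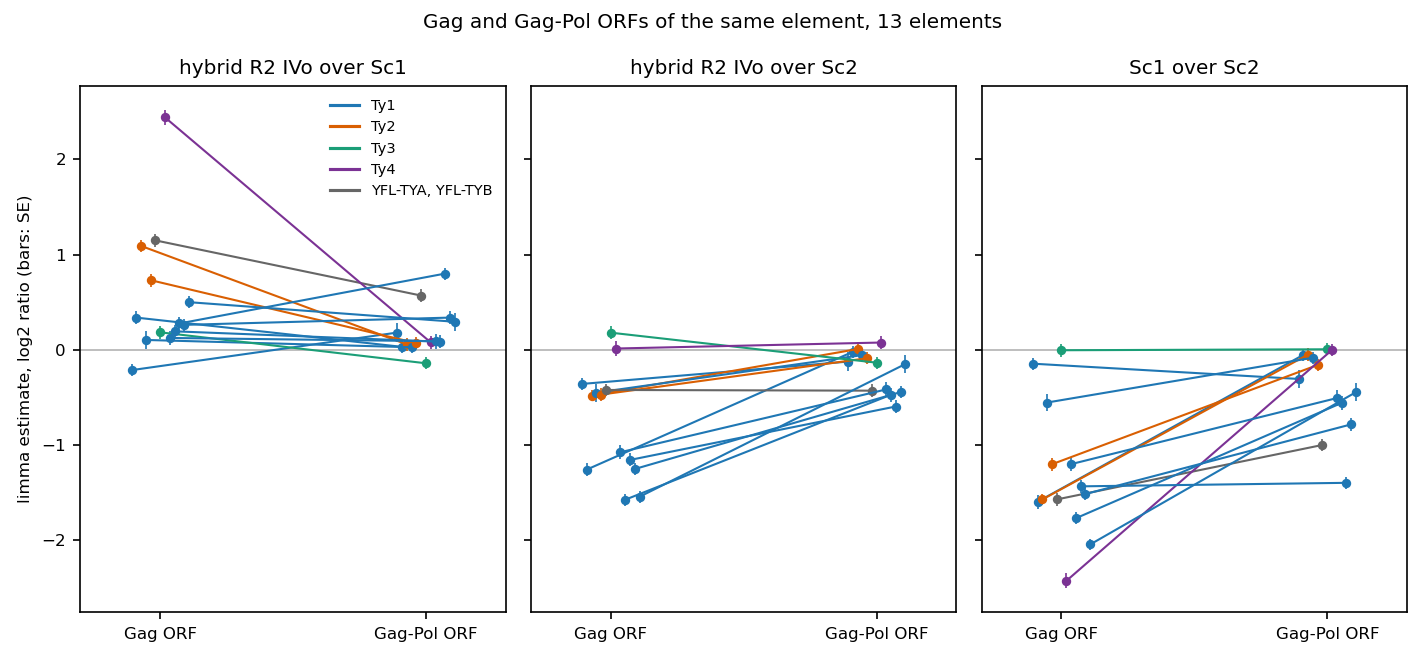
Estimates (log2, bars are SE) of the Gag ORF and the Gag-Pol ORF of the same element, joined by a line, for 13 elements and each comparison; colour gives the family. In Sc1 over Sc2 most lines rise from Gag to Gag-Pol, with a median difference of −0.73 (Gag minus Gag-Pol), and in hybrid over Sc1 only the Ty2, Ty4 and YFL lines fall by more than 0.5.

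The Gag and Gag-Pol ORFs of the same element were set against each other for the 13 elements with both on the array. In Sc1 over Sc2 the Gag ORF was below the Gag-Pol ORF by over 2 SE of their difference in 10 elements, above it by that much in 0, and within 2 SE in 3; this SE treats the errors of the 2 ORFs as independent. The median difference was −0.73. The 3 elements within 2 SE were YAR010C with YAR009C (0.16 ± 0.11), the Ty3 element (−0.010 ± 0.092) and YML040W with YML039W (−0.037 ± 0.093). The widest gaps were in Ty4 (−2.43 ± 0.10), in YMR051C with YMR050C (−1.60 ± 0.11), in YBL005W-A with YBL005W-B (−1.54 ± 0.095) and in YBL101W-A with YBL101W-B (−1.52 ± 0.095). In RefSeq the Gag ORF lies inside the Gag-Pol ORF in 8 of the 10 elements with both ORFs in that annotation. The exceptions are the YAR009C and Ty4 elements, where the ORF labelled Gag-Pol does not hold the whole Gag ORF. The sources used here do not say which stretch of an ORF each spot carries. The value of a Gag-Pol ORF that holds Gag thus cannot be told apart into Gag and Pol parts.

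Compared with Sc1, the hybrid was higher at 7 of the 30 Ty ORFs, lower at 0, and 23 were not called, against 0.327% of all ORFs called higher and 0.343% called lower. The median Ty estimate was 0.18, and 17 ORFs had an unadjusted p under 0.05, against 7.99% of all ORFs. The called ORFs were led by the Ty4 Gag ORF YJL114W, by YFL-TYA, whose family is not known, and by the Ty2 Gag ORF YBL101W-A. For YJL114W the hybrid over Sc1 estimate was 2.44 ± 0.079 (limma adjusted p = 8.03e-05), a 5.43-fold ratio. YFL-TYA and YBL101W-A were higher by 1.15 ± 0.066 and 1.09 ± 0.062 (limma adjusted p = 0.00125 for each), YCL020W by 0.73 ± 0.068 and YFL-TYB by 0.57 ± 0.065.

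Of the 19 Ty1 ORFs, 2 were higher in the hybrid than in Sc1. YML039W was at 0.80 ± 0.063 (limma adjusted p = 0.00414) and YMR051C at 0.50 ± 0.062 (limma adjusted p = 0.028); the latter call ended without centring and at a prior of 4 degrees of freedom, as did that of YFL-TYB at the low prior. The other 7 Ty1 Gag ORFs lay between −0.21 (YAR010C) and 0.34 (YBL005W-A), although 6 of 8 Ty1 Gag ORFs had an unadjusted p under 0.05. These 6 include YAR010C, whose estimate was negative and was not called. YML039W was the highest Ty1 ORF in this comparison, and the profile nearest to it was that of the Ty2 Gag ORF YCL020W, at a distance of 0.25. Its companion Gag ORF YML040W, nearest to the Ty1 Gag ORF YMR046C at 0.15, was at 0.28 ± 0.068.

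Compared with Sc2, the hybrid was lower at 11 Ty ORFs, higher at 0, and 19 were not called, against 0.735% of all ORFs called lower and 0.18% called higher. The median Ty estimate was −0.42. This comparison and the previous one share the hybrid's DNA, and every estimate uses all 3 samples, so their calls are not independent. Ty1 Gag ORFs were the lowest, with 6 of 8 called and a median of −1.20. YJR028W was at −1.57 ± 0.061 and YMR051C at −1.54 ± 0.062 (limma adjusted p = 3.23e-04 for each), 2.97-fold and 2.91-fold lower in the hybrid. The estimates of YMR046C and YBL005W-A were −1.25 and −1.26, and those of YJR026W and YML040W were −1.07 and −1.16, while YBR012W-A at −0.45 and YAR010C at −0.36 were not called.

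Among Ty1 Gag-Pol ORFs, YML045W was at −1.31 ± 0.083 (limma adjusted p = 0.00222), YML039W at −0.59 ± 0.063 and YMR045C at −0.44 ± 0.067. The call of YMR045C (limma adjusted p = 0.0493) ended without centring, with robust moderation, at a prior of 4 degrees of freedom and without the ORFs with restored decimals. The Ty2 Gag ORFs YBL101W-A and YCL020W were at −0.48 ± 0.062 (limma adjusted p = 0.024) and −0.47 ± 0.068 (limma adjusted p = 0.0424), and these calls ended without centring and at a prior of 4 degrees of freedom. YJR029W, a Ty1 Gag-Pol ORF, narrowly missed the threshold at −0.47 ± 0.071 (limma adjusted p = 0.0501). YFL-TYA and YFL-TYB missed it at −0.42 ± 0.066 and −0.43 ± 0.065 (limma adjusted p = 0.0586 and 0.0511). Each of these ORFs gained a call with centring on the mode. YJL114W of Ty4 was at 0.014 ± 0.079, with a 95% interval from −0.18 to 0.20, and was not called.

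**Figure D3:**
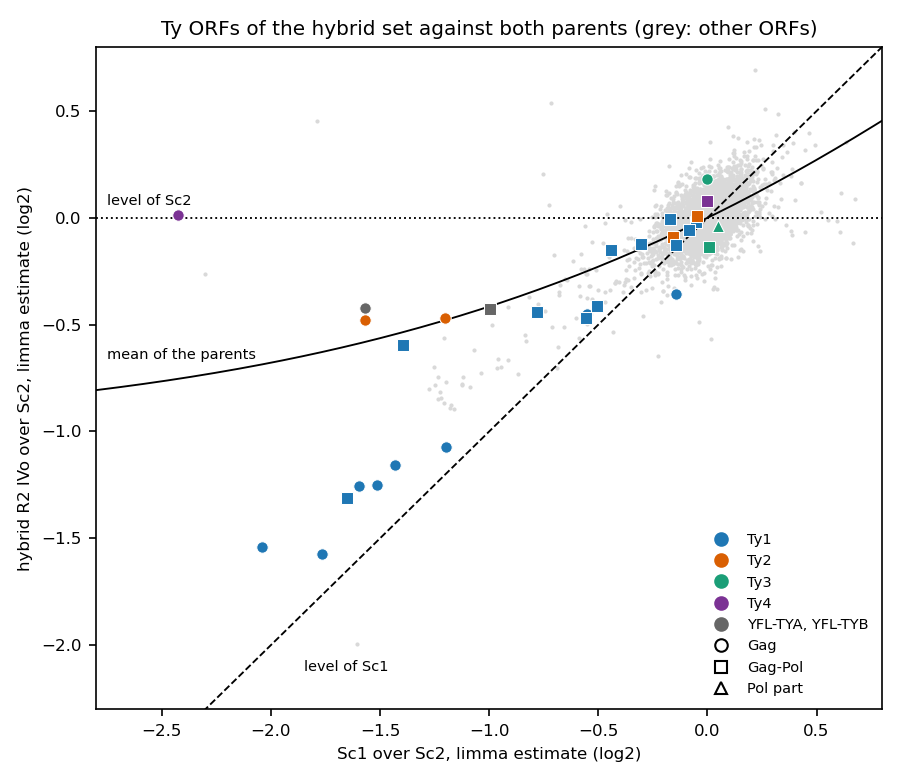
Estimate of the hybrid over Sc2 against that of Sc1 over Sc2 for the 30 Ty ORFs (colour, family; symbol, product) and the other ORFs (grey, those within the axes), in log2. The dotted line is the level of Sc2, the dashed line that of Sc1 and the solid curve the arithmetic mean of the parents; Ty1 Gag ORFs lie below the curve by 0.60 to 0.94 where the direct Sc1 over Sc2 value is at least 1 in size, Ty2 Gag ORFs lie on or just above it, and the Ty4 Gag ORF lies on the Sc2 line.

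The hybrid's place between the parents varied among the Ty ORFs. For the 13 Ty ORFs with a Sc1 over Sc2 value of at least 1 in size, the hybrid's position was computed from the other 2 samples on the log scale, with 1 for the level of Sc1 and 0 for that of Sc2. The 6 Ty1 Gag ORFs ran from 0.75 (YMR051C) to 0.89 (YJR028W), with a median of 0.83, and YML045W was at 0.83. The 2 Ty2 Gag ORFs were at 0.30 and 0.38, YFL-TYA at 0.28, YFL-TYB at 0.42 and YML039W at 0.42, so the 2 Ty1 Gag-Pol ORFs lay apart. YHR214C-B, a further Ty1 Gag-Pol ORF outside the 30, was at 0.60. The Ty4 Gag ORF YJL114W was at −0.05, the level of Sc2. The 6 Ty1 Gag ORFs with a position were all nearer to Sc1 than the 2 Ty2 Gag ORFs. The Ty1 Gag ORFs YBR012W-A and YAR010C had no position, and positions over all ORFs were not computed. The ORFs are not replicates, each pair of strains has 1 sample, and the difference between these positions was not tested.

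On a linear scale, a strain with the mean of the parents' levels would have been at −0.69 against Sc2 for YMR051C, where the estimate was −1.54, and at −0.63 for YJR028W, where it was −1.57. For the 6 Ty1 Gag ORFs the hybrid was below that mean by 0.60 to 0.94 in log2. For the Ty2 Gag ORFs YBL101W-A and YCL020W it was 0.10 and 0.010 above it, and for YFL-TYB it was −0.014 from it. YJL114W was 0.77 above it. These gaps depend on the base of the logarithm and on array ratios that follow the true ratio, neither of which was tested.

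**Figure D4:**
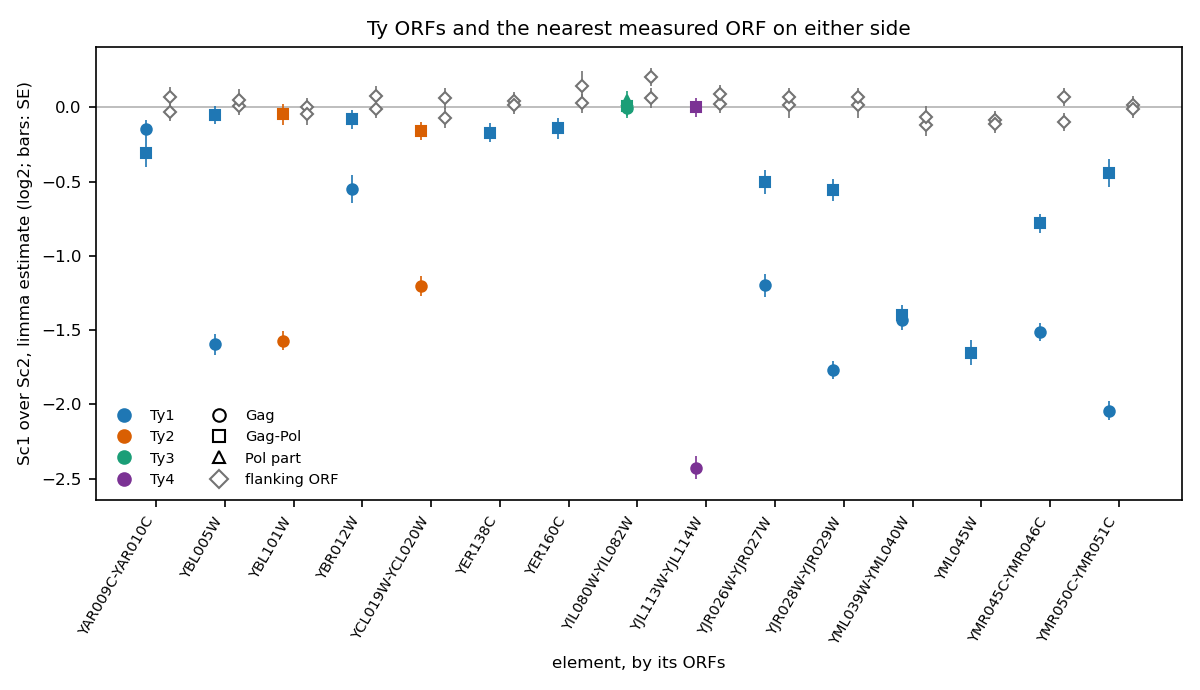
Estimates for Sc1 over Sc2 (log2, bars are SE) of the Ty ORFs of 15 elements (colour, family; symbol, product) and of the nearest measured ORF on either side (open diamonds). The flanking ORFs lie between −0.12 and 0.21 at every element, including those whose Gag ORF is below −1.

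None of the ORFs beside the elements was called, which is near the background for a list of this size. For 15 elements the nearest measured ORF on either side was taken by the number in its systematic name, which gave 28 ORFs. By limma 0 of 28 were called in each of the 3 comparisons, against 0.67%, 0.915% and 1.98% of all ORFs called in either direction for R2 IVo over Sc1, R2 IVo over Sc2 and Sc1 over Sc2; at an unadjusted p under 0.05 there were 3, 0 and 1, against 7.99%, 7.95% and 9.57% of all ORFs. In Sc1 over Sc2 they ran from −0.12 (YML038C, the YMD8 gene, beside YML039W) to 0.21 (YIL079C, the AIR1 gene, beside the Ty3 element), with a median of 0.015. Beside YJL114W, ASF1, a histone chaperone gene, was at 0.088. On the other side of that element, beside YJL113W, MDV1, a mitochondrial fission gene, was at 0.022. The leucine synthesis gene LEU2, beside YCL019W, was at 0.060. A Ty insertion absent from a strain leaves its flanking genes in place, so these values do not tell whether any element sits at the same site in the strains.

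Host genes that act on Ty1 expression or mobility in S. cerevisiae were taken as a list of 50, among them transcription factors (TEC1, STE12, GCR1), SAGA and TBP genes (SPT3, SPT15), the debranching enzyme gene DBR1, the regulators of Ty1 transposition of the RTT group and RPC40, the polymerase subunit that Ty1 integrase binds. All 50 were measured and by limma 0 were called in any of the 3 comparisons, with 2 at an unadjusted p under 0.05 in each. Over all ORFs, 0.67%, 0.915% and 1.98% were called and 7.99%, 7.95% and 9.57% had such a p, so 0 called of 50 is near the background. In Sc1 over Sc2 they ran from −0.22 (CAC2, a chromatin assembly factor gene) to 0.21 (GCR1), with a median of 0.024. The RPC40 gene was highest in the hybrid over Sc1, at 0.21.

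Beyond the 30 ORFs, the array held 3 further ORFs that the reference annotation assigns to Ty elements. YHR214C-B, a Ty1 Gag-Pol ORF near the right end of chromosome VIII, was called in every comparison, at 0.49 ± 0.067 in the hybrid over Sc1 (limma adjusted p = 0.0411), −0.75 ± 0.067 in the hybrid over Sc2 (limma adjusted p = 0.0055) and −1.24 ± 0.067 in Sc1 over Sc2 (limma adjusted p = 2.53e-04). The Ty5 ORFs YCL074W and YCL075W on chromosome III, remnants of a family with no complete copy in the reference strain, were not called, with Sc1 over Sc2 estimates of 0.036 and 0.076. The 10 other ORFs nearest to the median profile of the 19 Ty1 ORFs (0.19, −0.49 and −0.68 in the 3 samples) were at distances from 0.076 to 0.23. They included the subtelomeric ORFs YBL111C, YHR219W and YHL050C and the Y′ helicase genes YRF1-7 and YRF1-6, and also LAG1, a ceramide synthase gene, MCM5, a gene of the replicative helicase, and BST1, TCM62 and FMP27.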

How the data were processed

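The deposited table gives 1 log ratio per ORF and sample. Per the labels, DNA cut with Hinf I was labelled with Cy3 and Cy5 and hybridised on duplicate arrays with dyes exchanged; the sources used here do not give the scanner, background correction, normalisation, averaging or probes. No intensities were used, so the number of arrays limits the precision. Cells deposited by the authors as whole numbers of at least 1000 (76 cells in 57 ORFs) were divided by 1000. Of 6178 ORFs, 55 with a missing value were left out. Values were centred on each sample's median over the 6123 ORFs and fitted with limma 3.58.1 (lmFit, eBayes) in R 4.3.3, with the samples as sides of a triangle, in the design Sc1 and hybrid relative to Sc2. The prior degrees of freedom were 5.30. The code of the fit was run on simulated data with independent errors drawn from its own estimated spread. That run does not check the errors of the arrays. The alternatives were no centring, centring on the mode, robust moderation, a prior of 4 degrees of freedom, leaving out ORFs with restored decimals, and the direct or indirect value alone. Families and products follow the reference annotation as known. Of the 30 ORFs, 24 matched a RefSeq locus tag (assembly R64). RefSeq was used for names and for whether a Gag ORF lies inside its Gag-Pol ORF. Neighbours were taken from the number in the systematic name. Every Ty ORF is named. Of other lists, called ORFs, the extremes and the ORFs nearest to the Ty1 profile are named. Further flanking and host genes, such as ASF1, MDV1 and LEU2, were named as examples outside this rule. The members and lists were chosen with earlier results of these data known.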

Additional observations from a re-analysis of the deposited data

How the results depend on the processing

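The counts of called Ty ORFs stayed within 1.5 times the reported counts of 7, 11 and 17 under the changes of centring and moderation: 5 to 7 for the hybrid over Sc1, 8 to 15 for the hybrid over Sc2 and 15 to 18 for Sc1 over Sc2, in one direction each. Without the ORFs with restored decimals, 17 Ty ORFs remained in the table, and 0, 0 and 3 of them were called by limma in the same order, with medians of 0.078, −0.12 and −0.15; that choice removes each Ty ORF whose deposited value reached 1 in size in any sample. Of the single estimates, 7 lost their call at a prior of 4 degrees of freedom, 6 without centring, 2 without the ORFs with restored decimals and 1 with robust moderation, while 5 gained one with centring on the mode. By the direct sample 21 of 90 estimates moved by more than their SE, and by the indirect path 57. Of the 35 called estimates 1 thereby moved by over 1.5 times, that of YBR012W-A in Sc1 over Sc2, at −0.30 by the indirect path. The median for the hybrid over Sc2 was −0.35 by the indirect path, and that for Sc1 over Sc2 was −0.65 by the direct sample and −0.63 by the indirect path. No called estimate changed sign under the alternatives run. The sign of uncalled estimates changed in 7 cases by the direct sample and in 9 by the indirect path, as for YAR009C in the hybrid over Sc2 (0.145 by the indirect path against −0.12) and YJL114W there (−0.16 against 0.014). Nearer to 0, without centring YER138C was at 0.0010 in the hybrid over Sc2, and YIL082W and YJL113W were at 0.0083 and 0.012 in Sc1 over Sc2, where YIL082W-A was at −0.0083 with centring on the mode. Each pair of strains has 1 sample, so no result has a replicate check beyond the closure of the triangle.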
